A study of Mus musculus with 4 samples.

Results

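The receptors that read the constant (Fc) part of an antibody, with their shared signalling subunit and their nearest relatives, were followed in brain microglia of 20 mice. The 7 genes were taken by symbol from the 19737 genes of the deposited count matrix. They are Fcgr1, Fcgr3 and Fcgr4 (the activating IgG receptors FcγRI, FcγRIII and FcγRIV), Fcgr2b (the inhibitory IgG receptor FcγRIIB), Fcer1g (the FcRγ chain), Fcgrt (the neonatal Fc receptor FcRn) and Fcrls (an Fc receptor-like scavenger receptor gene enriched in microglia). All 7 passed the filter on low counts and were among the 14058 genes tested between groups.

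Single-cell RNA sequencing was performed on 74758 sorted brain myeloid cells, each assigned to a mouse by an oligonucleotide tag. There were 5 groups of 4 mice. WT mice received an isotype control or ATV:4D9, and AppSAA mice received the isotype control, plain 4D9 or ATV:4D9. All mice were adult, on a C57BL/6J background, and homozygous for a knock-in of the human transferrin receptor apical domain (hTfR KI HOM). AppSAA mice were also homozygous for the APP-SAA knock-in, which carries disease mutations in the mouse App gene and leads to amyloid plaques. 4D9 is an antibody that activates the microglial receptor TREM2, and ATV is an antibody transport vehicle, an Fc part engineered to bind the transferrin receptor and so to enter the brain. A single intravenous dose of 10 mg per kg was given, and tissue was taken 24 hours later. The isotype arm is labelled ATV:DNP02 and was read as the isotype control because the other labels name 4D9. The mice were run in 4 pools with 1 mouse of each group, and a mouse is numbered below by its pool. The recorded sex was male for all mice but WT isotype mouse 4.

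The antibodies themselves carried changed Fc parts. The deposited annotation gives a human IgG1 with LALA substitutions for the isotype and for ATV:4D9, and LALAPG for plain 4D9, both known to weaken binding to Fcγ receptors. The Fc part therefore differed between the plain 4D9 arm and the other arms, and in any comparison with plain 4D9 it cannot be told apart from the transport vehicle.

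Activating Fcγ receptors bind IgG outside the cell but have no signalling motif of their own. They pair with the FcRγ chain encoded by Fcer1g, whose ITAM motif recruits the kinase SYK. FcγRIIB carries an ITIM motif instead and recruits the lipid phosphatase SHIP1, encoded by Inpp5d, so that the balance of both kinds sets the response of a microglial cell to immune complexes. FcRn pairs with β2-microglobulin (B2m) and returns IgG taken up by a cell to the outside, away from lysosomes.

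In the GRCm38 annotation (GENCODE vM21), 4 of the 7 genes lie together on chromosome 1. These are Fcgr2b (170958617 to 170976547, minus strand), Fcgr4 (171018920 to 171029761, plus strand), Fcgr3 (171051174 to 171064935, minus strand) and Fcer1g (171229572 to 171234365, minus strand). Fcgr1 (96282909 to 96293969) and Fcrls (87250758 to 87263738) are on the minus strand of chromosome 3, and Fcgrt (45092990 to 45103851) is on the minus strand of chromosome 7. No exon of the 7 overlaps an exon of another gene on the same strand, and Fcgr2b overlaps Gm38204 on the opposite strand. Fcgr3 and Fcgr2b share 233 words of 31 bases over their longest transcripts but 0 in the last 500 bases, where reads of this 3′ method fall.

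The stretches before the start sites of Fcgr1 and Fcgr4 are shown because these were the 2 members that rose with ATV:4D9 in AppSAA mice. They are the 250 bases before the start site in RefSeq (GRCm38.p6), on the strand of the gene, and capitals mark matches to 3 motifs searched on both strands.
Fcgr1, chr3:96293970-96294219, minus strand: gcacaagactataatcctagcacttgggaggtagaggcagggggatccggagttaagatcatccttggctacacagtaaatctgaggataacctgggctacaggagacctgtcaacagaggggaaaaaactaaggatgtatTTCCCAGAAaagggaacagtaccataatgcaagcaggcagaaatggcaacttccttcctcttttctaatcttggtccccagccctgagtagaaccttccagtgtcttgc
Fcgr4, chr1:171018676-171018925, plus strand: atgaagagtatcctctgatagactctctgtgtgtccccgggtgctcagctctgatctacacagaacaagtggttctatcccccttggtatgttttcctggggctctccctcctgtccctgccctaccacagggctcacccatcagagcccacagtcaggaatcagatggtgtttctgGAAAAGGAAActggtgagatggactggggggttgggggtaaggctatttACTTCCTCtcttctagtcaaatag

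The motif TTCNNNGAA, the letters of an interferon-gamma activated site, occurred in Fcgr1 with its first base at -109 from the start site. It was present in 7.02% of 32851 promoters of the same length. In Fcgr4, GAAA, 2 bases of any kind and GAAA, the core letters of an interferon-stimulated response element (ISRE), began at -73 and occurred in 2.98% of promoters. GAGGAAGT, a PU.1-type letter run, lay on the minus strand of the Fcgr4 stretch with its first base at -24 and occurred in 2.44% of promoters. None of the 3 matches overlapped another, and these letters were not found in the windows of the other 5 members. A match is a description of the letters only.

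Levels are given as CPM, the UMIs (tagged RNA molecules) of a gene per 1000000 UMIs summed over all cells of a mouse. Each UMI stands for a 3′ end, so gene length does not enter, although capture can differ between genes. In WT isotype mice the order of mean CPM was Fcer1g (2612 ± 262, SD, n = 4), Fcrls (1710 ± 71.8), Fcgr3 (1151 ± 60.0), Fcgr1 (402 ± 20.1), Fcgr2b (240 ± 9.81), Fcgrt (95.5 ± 10.1) and Fcgr4 (18.2 ± 3.46). No 2 neighbours in that order had overlapping ranges over the mice. Of the 4 Fcγ receptor genes Fcgr3 was the highest in UMIs and Fcgr4 the lowest.

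**Figure D1:**
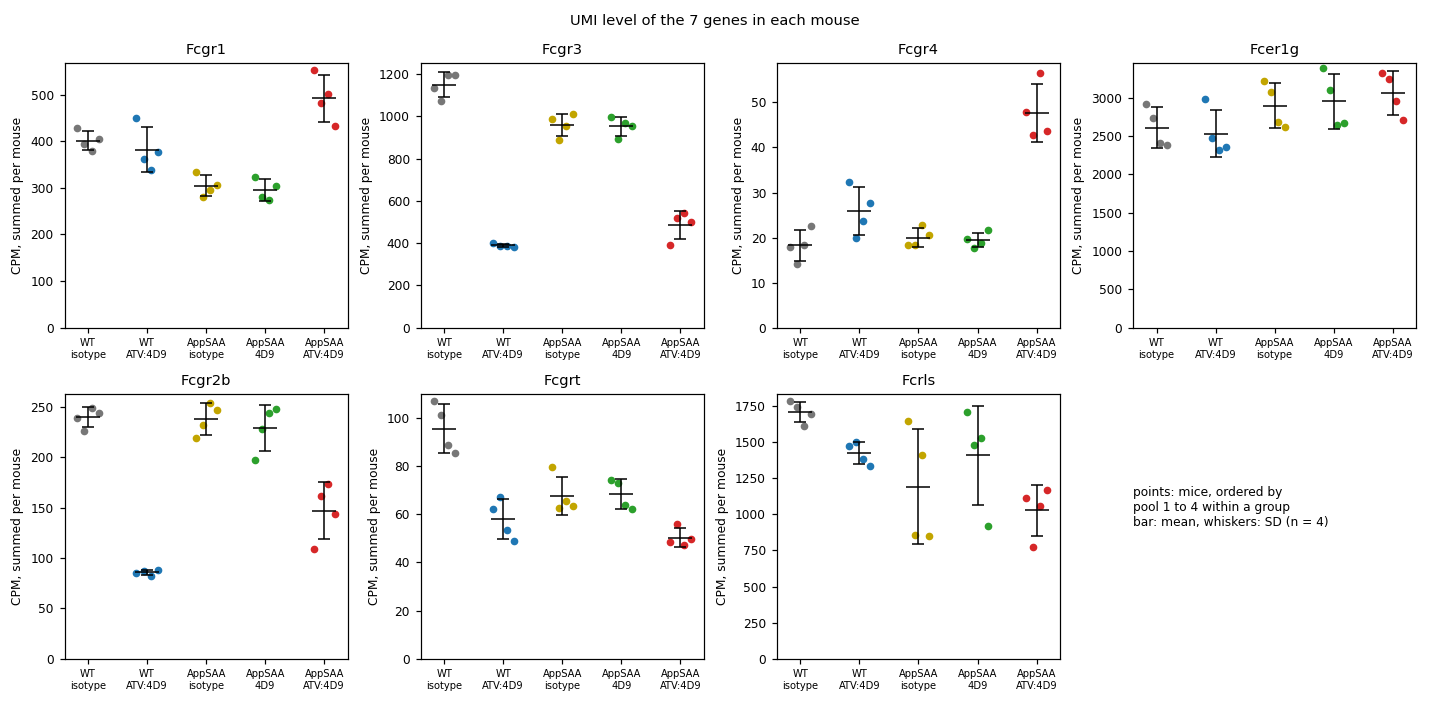
UMI level of the 7 genes in each mouse, as CPM on the y axis from 0, for the 5 groups on the x axis. Points are mice in the order of their pools, and bars with whiskers give the mean and SD of 4 mice. Fcgr3 and Fcgr2b lay lower in both ATV:4D9 groups than in every other group, and Fcgr1 and Fcgr4 lay highest in AppSAA mice given ATV:4D9.

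The cells of every mouse carried microglial markers, with none of the 6 at 0. Their summed level was 20780 to 21847 CPM per mouse in WT isotype and 14054 to 15336 CPM in WT ATV:4D9 mice. In AppSAA mice it was 13824 to 16195 CPM under isotype, 14897 to 15732 under 4D9 and 11201 to 12633 under ATV:4D9. This sum was thus lower with ATV:4D9 than with isotype in both genotypes. The 6 border macrophage markers together reached at most 32.7 CPM, 5 monocyte markers 13.7 CPM, 6 neutrophil markers 23.2 CPM and 4 dendritic cell markers 2.61 CPM. Monocyte markers, a cell type that carries Fcgr1 and Fcgr4, were summed at 4.09 to 10.3 CPM in AppSAA isotype mice and at 10.0 to 13.7 CPM in AppSAA ATV:4D9 mice. Of this list Plac8 went up, from 0.56 to 1.80 CPM per mouse under isotype to 7.89 to 10.3 CPM under ATV:4D9, and Vcan was at 0.21 to 0.42 and 0.52 to 0.87 CPM, while Ccr2 was at 2.30 to 6.06 and 1.30 to 2.66 CPM and Ly6c2 at most at 2.67 and 0.27 CPM. The part of monocytes in the rise of Fcgr1 and Fcgr4 was not tested. The B cell list reached 304 CPM, nearly all of it Ighm and Cd79b, with 1 to 3 of its 5 genes at 0. The mice differed in depth, from 17150296 to 102446549 UMIs, and the median UMIs per cell were 6859 to 11553 in the mice given isotype or 4D9 and 13479 to 17290 in those given ATV:4D9. There were 543 barcode sequences that occurred in more than 1 pool.

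To ask how TREM2 activation in the brain changed the receptors in the absence of plaques, WT mice given ATV:4D9 were compared with WT isotype mice. Expression was tested on sums per mouse with edgeR's quasi-likelihood test, adjusted over all 14058 genes, and genes with an adjusted p under 0.05 are described as called. In this comparison 63.3% of all genes were called, 30.8% higher and 32.5% lower. Of the 7 members, 1 was higher and 3 were lower, with a median log2 fold change of -0.15 against -0.05 over all genes. A share of 4 in 7 is close to the background, so that the sizes and directions of the changes are of more use than their count.

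Fcgr3 stood at 1136, 1072, 1198 and 1197 CPM in WT isotype mice and at 399, 389, 387 and 381 CPM in WT ATV:4D9 mice. The groups were far apart and the 4 treated mice lay close together. The log2 fold change was -1.45 ± 0.08 (SE, edgeR adjusted p = 3.26e-12), a 2.73-fold lower level. The inhibitory receptor gene Fcgr2b fell alongside. Fcgr2b was at 239, 226, 249 and 244 CPM under isotype and at 85.6, 87.4, 82.2 and 88.5 CPM under ATV:4D9, with no overlap. The log2 fold change was -1.36 ± 0.09 (edgeR adjusted p = 4.41e-11).

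Fcgrt, the IgG recycling receptor, was lower as well. It was at 107, 101, 88.8 and 85.3 CPM under isotype and at 62.1, 67.2, 53.3 and 48.8 CPM under ATV:4D9, again without overlap. The log2 fold change was -0.61 ± 0.13 (edgeR adjusted p = 3.94e-04). Endothelial cells also carry FcRn, and the summed level of 3 endothelial markers differed between the groups. It was at 18.3 to 24.4 CPM in WT isotype and 9.49 to 12.9 CPM in WT ATV:4D9 mice. In AppSAA mice it was at 37.5 to 52.2 CPM under isotype and 13.2 to 25.9 CPM under ATV:4D9. Under isotype this sum was thus higher in AppSAA than in WT mice, while mean Fcgrt was lower, at 67.7 against 95.5 CPM. The cells had been sorted as CD11b+, and the part of endothelial cells in the Fcgrt values was not tested. Fcgr4 rose from 17.8, 14.2, 18.4 and 22.6 CPM to 32.4, 19.9, 23.6 and 27.7 CPM. In each pool the treated mouse was higher, while the ranges of the groups overlapped, with a log2 fold change of 0.63 ± 0.15 (edgeR adjusted p = 1.08e-03).

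The high-affinity receptor gene Fcgr1 was not called in WT mice. It was at 427, 394, 380 and 405 CPM under isotype and at 451, 362, 338 and 378 CPM under ATV:4D9, and these ranges overlapped (log2 fold change 0.05 ± 0.13, edgeR adjusted p = 0.755). Fcer1g, the subunit that the activating receptors share, was at 2612 ± 262 and 2531 ± 305 CPM and was not called (edgeR adjusted p = 0.697). Fcrls was at 1710 ± 71.8 and 1424 ± 77.7 CPM and was not called either (edgeR adjusted p = 0.554), although its ranges did not overlap. All groups were fitted together, so this p value also carries the wider spread of Fcrls among AppSAA mice (SD 400 CPM under isotype).

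The same treatment was then compared in AppSAA mice, where plaques are present. Here 55.1% of all genes were called, 27.9% higher and 27.1% lower, and 2 members were higher and 3 lower. The median log2 fold change of the members was -0.14 against -0.03 over all genes. As in the figure of levels by mouse, Fcgr3 and Fcgr2b were lower and Fcgr4 was higher, and Fcgr1 was now higher too.

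Fcgr1 was at 334, 280, 296 and 307 CPM in AppSAA isotype mice and at 554, 482, 501 and 433 CPM in AppSAA ATV:4D9 mice. All treated mice were above all isotype mice, with a log2 fold change of 0.77 ± 0.13 (edgeR adjusted p = 3.33e-05). Fcgr4 was at 18.3, 18.3, 22.7 and 20.6 CPM under isotype and at 47.9, 42.7, 56.6 and 43.6 CPM under ATV:4D9. It rose 2.51-fold (log2 fold change 1.33 ± 0.15, edgeR adjusted p = 2.66e-07), the widest change of any member in these mice.

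Fcgr3 was at 985, 889, 956 and 1009 CPM under isotype and at 393, 517, 544 and 498 CPM under ATV:4D9. It fell in every pool, with a log2 fold change of -0.91 ± 0.08 (edgeR adjusted p = 5.42e-09). Fcgr2b was at 219, 233, 254 and 247 CPM under isotype and at 109, 162, 174 and 144 CPM under ATV:4D9, with a log2 fold change of -0.63 ± 0.09 (edgeR adjusted p = 3.65e-06). AppSAA ATV:4D9 mouse 1 was the lowest of its group for both genes. Fcgrt was at 67.7 ± 7.91 and 50.2 ± 3.95 CPM, with a log2 fold change of -0.36 ± 0.13 (edgeR adjusted p = 0.0228). This call was lost without AppSAA isotype mouse 1 (log2 fold change -0.26, edgeR adjusted p = 0.107), AppSAA ATV:4D9 mouse 3 (-0.32, edgeR adjusted p = 0.0637) or AppSAA ATV:4D9 mouse 4 (-0.32, edgeR adjusted p = 0.0618), and with only cells of 1000 to 25000 UMIs (-0.27, edgeR adjusted p = 0.0736). Fcer1g was at 2898 ± 290 and 3060 ± 285 CPM and was not called (log2 fold change 0.15 ± 0.15, edgeR adjusted p = 0.410). With the pool as a block the same value of 0.15 was called (edgeR adjusted p = 0.0191), where the block called 70.7% of all genes.

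**Figure D2:**
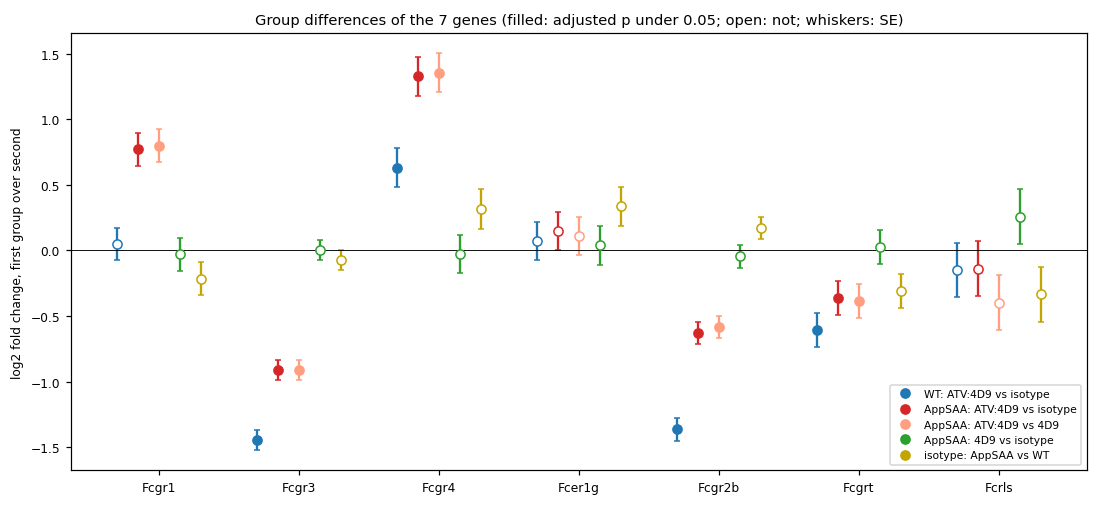
Log2 fold change of each member on the y axis, first group over second, for 5 comparisons. Whiskers are SE from the edgeR fit, filled points have an adjusted p under 0.05 and open points do not. Fcgr3, Fcgr2b and Fcgrt lie below 0 and Fcgr4 above 0 in all 3 comparisons of ATV:4D9, and the points of plain 4D9 are all open.

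Plain 4D9, at the same dose and without the transport vehicle, was also compared with the isotype in AppSAA mice. The isotype is labelled ATV:DNP02, so the vehicle, the Fc substitutions and the target-binding part all differ here. Their parts cannot be told apart. None of the 14058 genes was called between AppSAA mice given 4D9 and AppSAA isotype mice with edgeR, 79 had an unadjusted p under 0.05, and limma called 0 and DESeq2 called 1. The log2 fold changes of the members were between -0.05 (Fcgr2b) and 0.26 (Fcrls). Fcgr3 was at 960 ± 52.3 CPM under isotype and 952 ± 43.7 CPM under 4D9, and Fcgr4 was at 19.99 ± 2.13 and 19.5 ± 1.64 CPM. Against plain 4D9, ATV:4D9 gave log2 fold changes of -0.91 ± 0.08 for Fcgr3, -0.58 ± 0.09 for Fcgr2b and -0.39 ± 0.13 for Fcgrt. Fcgr1 differed by 0.80 ± 0.13 and Fcgr4 by 1.36 ± 0.15, and these 5 were the members called, where 54.3% of all genes were called with edgeR. This comparison shares the ATV:4D9 mice with the previous one. The Fcgrt call was lost without AppSAA 4D9 mouse 1 (-0.31, edgeR adjusted p = 0.0648) or mouse 2 (-0.35, edgeR adjusted p = 0.0502), and with only cells of 1000 to 25000 UMIs (-0.29, edgeR adjusted p = 0.0566).

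Between AppSAA and WT isotype mice, 28.2% of all genes were called. Of the members 0 were called with edgeR, DESeq2 or limma, and 2 had an unadjusted p under 0.05. The log2 fold changes ranged from -0.34 (Fcrls) to 0.34 (Fcer1g). With the pool as a block 51% of all genes and 4 of the 7 members were called, a share close to that background. These were Fcgr1 (log2 fold change -0.22, edgeR adjusted p = 4.86e-03), Fcgr4 (0.32, adjusted p = 0.0450), Fcer1g (0.34, adjusted p = 5.02e-05) and Fcgrt (-0.31, adjusted p = 8.56e-05). Fcgr1 was at 402 ± 20.1 CPM in WT and 304 ± 22.7 CPM in AppSAA isotype mice, without overlap. Fcgrt was at 95.5 ± 10.1 and 67.7 ± 7.91 CPM, and without AppSAA isotype mouse 1 it was called also without the block (-0.42, edgeR adjusted p = 0.0257). Fcgr2b was at 240 ± 9.81 and 238 ± 15.6 CPM. Its fitted log2 fold change was 0.17 (edgeR adjusted p = 0.136), of the opposite sign to the CPM means, since the fit also scales each library by TMM. The same held for Fcgr1 and Fcer1g in WT mice given ATV:4D9, where the CPM means were lower and the fitted values 0.05 and 0.07, and none of these 3 was called.

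The response to ATV:4D9 differed between the genotypes for 4 members, against a background of 9.14% of all genes (3.79% in the higher direction). The interaction, the log2 fold change in AppSAA minus that in WT mice, was 0.73 ± 0.12 for Fcgr2b (edgeR adjusted p = 5.36e-04) and 0.53 ± 0.11 for Fcgr3 (edgeR adjusted p = 2.99e-03). Both thus fell less in AppSAA than in WT mice relative to library size. On the scale of UMIs per cell none of the 4 interactions was called (0.38 for Fcgr2b, edgeR adjusted p = 0.248, and 0.20 for Fcgr3, adjusted p = 0.459). The median gene's interaction was -0.30 on that scale. Relative to library size the interaction was 0.72 ± 0.18 for Fcgr1 (edgeR adjusted p = 0.0125) and 0.70 ± 0.21 for Fcgr4 (edgeR adjusted p = 0.0409). Fcgr4 thus rose more in AppSAA than in WT mice, and Fcgr1 was called higher in AppSAA mice and not called in WT mice. For Fcer1g (0.08), Fcgrt (0.25) and Fcrls (0.01) the interaction was not called, and for Fcgrt it was called with the pool as a block (0.25, edgeR adjusted p = 0.0136, where 30.5% of all genes were called). The Fcgr4 interaction was lost with RLE size factors (0.66, edgeR adjusted p = 0.0576), with no filter on low counts (0.64, adjusted p = 0.0730) and on leaving out most single mice of the 4 groups compared, with an adjusted p of 0.107 without WT isotype mouse 4. It was kept without WT isotype mouse 2, WT ATV:4D9 mouse 1, AppSAA isotype mouse 3, or AppSAA ATV:4D9 mouse 2 or 4.

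Under ATV:4D9, AppSAA and WT mice accordingly stood apart, where 11.8% of all genes were called and 7.84% were higher. Fcgr2b was 147 ± 28.4 CPM in AppSAA and 85.9 ± 2.74 CPM in WT mice (log2 fold change 0.91 ± 0.09, edgeR adjusted p = 4.00e-07). Fcgr4 was 47.7 ± 6.37 and 25.9 ± 5.38 CPM (1.01 ± 0.15, edgeR adjusted p = 5.74e-05), and neither gene overlapped between the groups. Fcrls did not overlap either but was lower in AppSAA mice, at 1030 ± 176 and 1424 ± 77.7 CPM. It was not called (-0.32 ± 0.21, edgeR adjusted p = 0.406). Fcgr1 was 492 ± 50.04 and 382 ± 48.6 CPM (0.51 ± 0.13, edgeR adjusted p = 9.66e-03), and Fcgr3 was 488 ± 66.0 and 389 ± 7.47 CPM (0.46 ± 0.08, edgeR adjusted p = 2.94e-04), both with overlapping ranges. Fcer1g was at 3060 ± 285 and 2531 ± 305 CPM and was not called (edgeR adjusted p = 0.0757). It was called with the pool as a block (0.41, edgeR adjusted p = 1.28e-05, where 31.4% of all genes were called), without WT ATV:4D9 mouse 1 (0.54, edgeR adjusted p = 0.0220) and without AppSAA ATV:4D9 mouse 4 (0.47, edgeR adjusted p = 0.0457).

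The balance of activating to inhibitory receptor RNA was followed as a ratio of UMIs within each mouse. Fcgr3 to Fcgr2b UMIs stood at 4.80 ± 0.08 in WT isotype, 4.53 ± 0.19 in WT ATV:4D9, 4.04 ± 0.34 in AppSAA isotype, 4.19 ± 0.57 in AppSAA 4D9 and 3.34 ± 0.23 in AppSAA ATV:4D9 mice. The ratio therefore moved little in WT mice, where both genes fell together, and was lowest in AppSAA ATV:4D9 mice. The AppSAA ATV:4D9 mice were 1.21-fold below AppSAA isotype mice (two-sided exact permutation test, p = 0.0286, adjusted over 12 ratio tests 0.0429). In WT mice the difference was 1.06-fold lower with the same p values, and with only cells of 1000 to 25000 UMIs this call was lost (log2 difference -0.077, exact permutation adjusted p = 0.152). With 4 mice against 4, 0.0286 is the smallest p this test can give. The sum of Fcgr1, Fcgr3 and Fcgr4 over Fcgr2b was 6.55 ± 0.11 in WT isotype and 9.28 ± 0.70 in WT ATV:4D9 mice, and 5.41 ± 0.49, 5.58 ± 0.81 and 7.16 ± 1.33 in AppSAA isotype, 4D9 and ATV:4D9 mice. Against isotype the summed ratio was 1.41-fold higher with ATV:4D9 in WT mice and 1.31-fold higher in AppSAA mice, each with an exact permutation p of 0.0286, adjusted 0.0429. With only cells of 1000 to 25000 UMIs the AppSAA difference went from 0.39 to 0.25 on the log2 scale and was not called (exact permutation adjusted p = 0.129). Against plain 4D9 it was 1.28-fold higher and did not pass (exact permutation p = 0.114, adjusted 0.137). AppSAA ATV:4D9 mouse 1 stood at 9.13 and the other 3 mice of the group at 6.33 to 6.76. Paired by pool, an alternative chosen after the values were seen, the summed ratio was higher with ATV:4D9 than with plain 4D9 in 4 of 4 pools (exact permutation test within pools, p = 0.125, the smallest it can give). No ratio passes when paired in this way, since the adjusted p over the 12 tests is then at least 0.15.

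CPM measures a gene against the rest of the RNA, and cells of ATV:4D9 mice held more UMIs. On the scale of UMIs per cell the median gene itself moved by 0.79 (log2) in WT and by 0.47 in AppSAA mice, and 70.5% and 55.3% of all genes were called. Fcgr3 and Fcgr2b went against that shift. Fcgr3 fell from 9.93 to 6.52 UMIs per cell in WT mice (log2 fold change -0.61, edgeR adjusted p = 1.10e-04) and from 11.1 to 8.32 in AppSAA mice (-0.41, edgeR adjusted p = 5.24e-03). Fcgr2b fell from 2.07 to 1.44 UMIs per cell in WT mice (-0.52, edgeR adjusted p = 5.09e-03), while in AppSAA mice it was at 2.75 and 2.51 and was not called (-0.14, edgeR adjusted p = 0.474). Only 2.36% of genes in WT and 3.21% in AppSAA mice were called lower on this scale.

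The other members had higher mean UMIs per cell with ATV:4D9 in both genotypes. In AppSAA mice the ranges overlapped for Fcrls, at 9.71 to 17.2 under isotype and 11.9 to 21.1 under ATV:4D9. They also overlapped for Fcgrt, at 0.71 to 0.83 and 0.81 to 0.89. Fcgr4 went from 0.16 to 0.44 UMIs per cell in WT mice and from 0.23 to 0.82 in AppSAA mice. Fcer1g went from 22.4 to 42.3 UMIs per cell in WT mice and from 33.2 to 52.3 in AppSAA mice (log2 fold changes 0.92 and 0.65, close to the shift of the median gene). Fcgr1 went from 3.45 to 6.396 and from 3.496 to 8.43. Fcgrt turned direction, from lower per CPM to higher per cell in WT mice (0.82 to 0.96 UMIs per cell, log2 fold change 0.23, edgeR adjusted p = 9.81e-03), a rise smaller than that of the median gene. Fcrls was higher per cell in WT mice (0.69, edgeR adjusted p = 2.02e-03), also below the median shift. The interactions of Fcgr1, Fcgr2b, Fcgr3 and Fcgr4 were between 0.20 and 0.38 on this scale and none was called. The median gene's interaction was -0.30 here, and 15.9% of all genes were called, 0.27% higher and 15.6% lower.

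**Figure D3:**
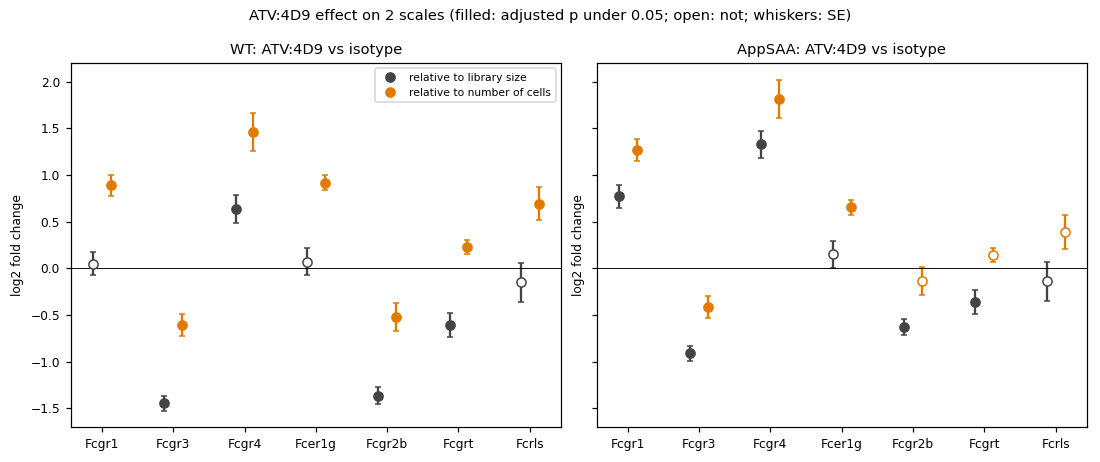
Log2 fold change of ATV:4D9 over isotype (y axis) for each member in WT mice (left) and AppSAA mice (right), relative to library size (dark) and to the number of cells (orange). Whiskers are SE, filled points have an adjusted p under 0.05 and open points do not. Fcgr3 stays below 0 on both scales in both genotypes, and Fcgrt changes sign.

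The share of cells with a UMI was compared after each cell was thinned to 5000 UMIs, which left out 402 to 1275 cells per group. Fcgr2b was seen in 66.7% ± 2.06 of cells in WT isotype and 34.1% ± 1.03 in WT ATV:4D9 mice, and in 65.4% ± 2.32 and 46.1% ± 4.87 of cells in AppSAA isotype and ATV:4D9 mice. Without thinning the 4 shares were 79.5%, 66.6%, 83.6% and 75.5%. Fcgr4 was seen in 7.57% ± 1.61 and 9.75% ± 1.89 of thinned cells in WT mice and in 8.52% ± 0.60 and 17.6% ± 1.91 in AppSAA mice. Without thinning these were 12.4%, 25.1%, 16.9% and 38.1%. Fcer1g was seen in nearly every thinned cell, with group means of 99.97% to 100%. Since every cluster carried the microglial markers, no cell type lacking these genes gave a background share, and whether free RNA adds to the low share of Fcgr4 was not tested. A lower level per mouse can stem from fewer cells of a kind or from less RNA per cell, and these cannot be told apart in the sums. The levels were next taken within clusters. The clusters were made from expression after treatment, and the groups fill them differently. Comparisons of groups within a cluster therefore do not fully separate these either.

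The authors' coarser clustering (resolution 0.2) has 6 clusters without names. Clusters 0 and 3 were homeostatic-like, with all 8 homeostatic markers above the other cells. Cluster 1 was plaque-associated-like (10 of 10 markers higher), cluster 5 interferon-like (10 of 10) and cluster 4 cycling-like (10 of 10), and cluster 2 matched none of the lists. All 8 immediate early genes were higher in cluster 3. Of WT isotype cells, 60.4% ± 2.60 were in cluster 0 and 35.8% ± 2.56 in cluster 3. Of WT ATV:4D9 cells, 47.8% ± 3.48 were in cluster 2 and 40.0% ± 4.44 in cluster 4. In AppSAA mice cluster 1 held 38.3% ± 4.64 of cells under isotype and 13.5% ± 3.05 under ATV:4D9, and cluster 5 held 2.48% ± 1.05 and 22.4% ± 4.26. Clusters were made from the expression of these cells, so differences between clusters are a description without a test.

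Fcgr1 and Fcgr4 had their highest averages in the interferon-like cluster 5. Fcgr1 was at 847 ± 116 CPM there (SD over 17 mice with at least 20 cells) and at 260 to 396 CPM on average in the other clusters. The lowest mouse in cluster 5 (698 CPM) was above the highest in any other cluster (535 CPM). Fcgr4 was at 105 ± 21.7 CPM in cluster 5 and at 18.2 to 31.8 CPM on average elsewhere. Its lowest mouse in cluster 5 (59.3 CPM) was below its highest in cluster 2 (65.6 CPM). The summed level of the 5 monocyte markers was also highest there, at 31.5 CPM against 5.68 to 7.45 CPM in the other clusters. Plac8 made up 26.9 CPM of it, with Ccr2 at 2.54 CPM (1.82 to 5.50 in the other clusters) and Ly6c2 at 0.57 CPM (0.099 to 1.41). Vcan was highest there too, at 1.22 CPM against 0.26 to 0.51 CPM, and the part of monocytes in these levels was not tested. In AppSAA ATV:4D9 mice cluster 5 gave 46.4% of all Fcgr4 UMIs and 35.5% of all Fcgr1 UMIs, against 10.7% and 6.5% under isotype. This rise was not particular to these genes, since the cluster went from 2.48% to 22.4% of cells. Its share went from 3.03% to 29.2% for Fcgr2b, 2.57% to 24.4% for Fcgr3 and 2.67% to 24.9% for Fcer1g. For Fcgrt it went from 2.33% to 20.1% and for Fcrls from 2.11% to 17.5%.

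Fcgr3 followed another order. Because the groups differ in level and fill different clusters, the order is given within AppSAA isotype mice, whose 4 mice all had at least 20 cells in each of the 6 clusters. Fcgr3 was at 1162 ± 40.5 CPM in cluster 0, 1062 ± 35.4 in cluster 3, 935 ± 26.0 in cluster 5, 875 ± 53.7 in cluster 1, 637 ± 49.1 in cluster 2 and 500.5 ± 21.4 in cluster 4. The ranges of clusters 0 and 3 overlapped, as did those of clusters 5 and 1, and the other neighbours in that order did not. Fcgr2b was at 272 ± 41.5 CPM in cluster 5, 253 ± 19.3 in cluster 0, 239 ± 16.2 in cluster 1, 231 ± 11.1 in cluster 3 and 223 ± 17.7 in cluster 4, all with overlapping ranges, and at 142 ± 16.3 CPM in cluster 2, below them all.

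Fcgrt was highest in the homeostatic-like clusters of these mice, at 90.6 ± 9.83 CPM in cluster 0 and 84.5 ± 6.63 in cluster 3, and was at 53.1 to 60.1 CPM on average in the other 4, with no overlap. Fcer1g spanned 2453 ± 240 CPM in cluster 3 to 3163 ± 334 CPM in cluster 1. Fcrls was at 1425 ± 426 CPM in cluster 0 and 947 ± 253 CPM in cluster 5, with overlapping ranges. In all mice together, the 3 endothelial markers were summed at 65.3 CPM in cluster 1 and 10.9 to 26.2 CPM in the other clusters.

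**Figure D4:**
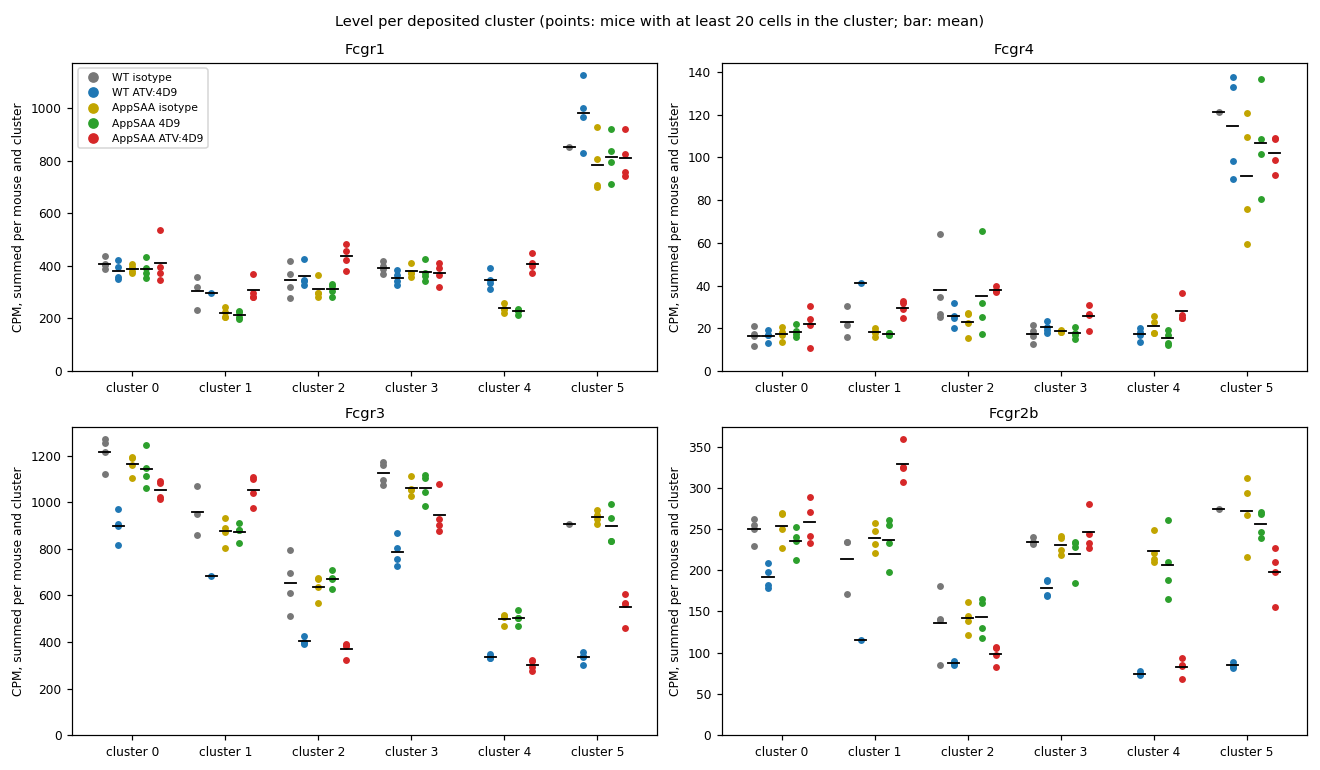
CPM of Fcgr1, Fcgr4, Fcgr3 and Fcgr2b (y axis, from 0) in each deposited cluster (x axis), coloured by group. Points are mice with at least 20 cells in the cluster and bars are group means. Fcgr1 and Fcgr4 stand out in cluster 5. For Fcgr2b and Fcgr3, AppSAA ATV:4D9 mice lie above AppSAA isotype mice in cluster 1 and below them in clusters 2 and 4. In cluster 5 the AppSAA ATV:4D9 mice lie below AppSAA isotype mice for Fcgr3 and overlap them for Fcgr2b.

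Within the plaque-associated-like cluster 1, 3 of the 7 members were called between AppSAA mice given ATV:4D9 and isotype, and all 3 were higher. Fcgr2b was at 239 ± 16.2 CPM under isotype and 329 ± 21.5 CPM under ATV:4D9 (log2 fold change 0.51 ± 0.09, edgeR adjusted p = 2.69e-03), the opposite direction to the whole mouse. Fcgr4 was at 18.3 ± 1.74 and 29.5 ± 3.60 CPM (0.73 ± 0.10, edgeR adjusted p = 2.58e-04) and Fcgr1 at 219 ± 18.4 and 307 ± 40.9 CPM (0.54 ± 0.12, edgeR adjusted p = 0.0246). Fcgr3 was at 875 ± 53.7 and 1054 ± 61.8 CPM and was not called (0.32 ± 0.09, edgeR adjusted p = 0.103), although its ranges did not overlap, and it was called with the pool as a block (0.32, edgeR adjusted p = 3.95e-03, where 7.25% of genes were called). Fcgrt (0.17, edgeR adjusted p = 0.769), Fcer1g (0.06, adjusted p = 0.974) and Fcrls (0.23, adjusted p = 0.877) were not called. Without the block 1.34% of all genes were called in this cluster and comparison. The Fcgr1 call was lost without pool 2, 3 or 4 (adjusted p 0.109 to 0.185), and that of Fcgr2b without pool 3 (0.48, edgeR adjusted p = 0.0615).

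In clusters 2 and 4, Fcgr3 and Fcgr2b were lower and Fcgr1 higher in AppSAA mice given ATV:4D9. In cluster 2, where 13.2% of genes were called, Fcgr3 was at 637 ± 49.1 and 371 ± 32.2 CPM (log2 fold change -0.74 ± 0.10, edgeR adjusted p = 6.92e-06) and Fcgr2b at 142 ± 16.3 and 98.0 ± 11.4 CPM (-0.49 ± 0.12, edgeR adjusted p = 7.65e-03). Fcgr1 was at 310 ± 38.0 and 435 ± 43.9 CPM (0.54 ± 0.13, edgeR adjusted p = 4.55e-03), and Fcgr4 at 23.0 ± 5.57 and 37.9 ± 1.31 CPM (0.74 ± 0.25, edgeR adjusted p = 0.0496). Without pool 3 the calls of Fcgr1, Fcgr2b and Fcgr4 in this cluster were lost (edgeR adjusted p 0.0550, 0.127 and 0.166), as was that of Fcgr4 without pool 4 (0.168). In the cycling-like cluster 4, where 24.5% of genes were called, Fcgr2b was at 223 ± 17.7 and 82.6 ± 10.99 CPM (-1.44 ± 0.12, edgeR adjusted p = 1.38e-08), a 2.72-fold lower level. Fcgr3 differed by -0.74 ± 0.09 there (edgeR adjusted p = 1.09e-06) and Fcgr1 by 0.77 ± 0.11 (edgeR adjusted p = 2.23e-05). Fcgr4 was not called in cluster 4 (0.40 ± 0.21, edgeR adjusted p = 0.165) and its ranges overlapped. Fcgrt, called in the whole mouse, was not called in cluster 2 (-0.14, edgeR adjusted p = 0.524) or cluster 4 (-0.12, adjusted p = 0.583). The isotype sums of cluster 4 held only 27 to 74 cells and those of cluster 2 held 75 to 172.

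In the interferon-like cluster 5, Fcgr3 was at 935 ± 26.0 CPM under isotype and 548 ± 62.4 CPM under ATV:4D9 (log2 fold change -0.66 ± 0.10, edgeR adjusted p = 4.61e-05), where 27% of genes were called. Fcgr2b differed by -0.37 ± 0.11 (edgeR adjusted p = 0.0179), a call lost without pool 2, 3 or 4 (adjusted p 0.0649 to 0.122). Fcgr1 (784 ± 107 and 810 ± 81.9 CPM) and Fcgr4 (91.4 ± 28.7 and 102 ± 8.40 CPM) were not called in this cluster, although the whole-mouse levels of both had risen. With the pool as a block Fcgr4 (0.34, edgeR adjusted p = 0.0339), Fcer1g (0.34, adjusted p = 3.60e-03) and Fcgrt (-0.31, adjusted p = 0.0478) were also called, where 34.3% of genes were called.

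The contrast between cluster 1 and clusters 2 and 4 is described within mice, with no test, since both genes were picked for it after their values were seen. The log2 ratio of cluster 1 to cluster 2 was 0.99 higher for Fcgr2b and 1.05 higher for Fcgr3 in AppSAA ATV:4D9 than in AppSAA isotype mice. For cluster 1 to cluster 4 the differences were 1.90 and 1.00.

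In WT mice given ATV:4D9 the few cells left in homeostatic-like clusters also carried less Fcgr3. In cluster 0 it was at 1215 ± 68.1 CPM under isotype and 899 ± 63.1 CPM under ATV:4D9 (log2 fold change -0.39 ± 0.09, edgeR adjusted p = 0.0182, where 1.47% of genes were called). In cluster 3 it was at 1126 ± 47.7 and 788 ± 62.5 CPM (-0.42 ± 0.09, edgeR adjusted p = 2.90e-03, where 6.17% were called). The cluster 0 call was lost without pool 2, 3 or 4 (adjusted p 0.128 to 0.221) and the cluster 3 call without pool 4 (-0.40, edgeR adjusted p = 0.0717). Fcgr2b differed by -0.30 ± 0.08 in cluster 3 (edgeR adjusted p = 0.0231), a call lost without any 1 pool, and by -0.32 ± 0.10 in cluster 0 (adjusted p = 0.0942, and 3.42e-03 with the pool as a block, where 8.96% of genes were called). Fcgr1 and Fcgr4 were not called in either. In AppSAA mice given ATV:4D9 none of the 7 members was called in these clusters without the block, where 0.667% (cluster 0) and 4.33% (cluster 3) of genes were called. Fcgr3 differed there by -0.09 (edgeR adjusted p = 0.822) and -0.05 (adjusted p = 0.854), and Fcgr2b by 0.09 (adjusted p = 0.838) and 0.20 (adjusted p = 0.178). With the pool as a block 3 members were called higher in cluster 3, where 12.6% of genes were called, namely Fcgr2b (0.19, edgeR adjusted p = 0.0343), Fcgr4 (0.52, adjusted p = 0.0215) and Fcer1g (0.19, adjusted p = 0.0185), and 0 in cluster 0. The interaction was not called for Fcgr3 or Fcgr2b in either cluster without the block (0.30 to 0.51, edgeR adjusted p of 0.915 or more). With the block it was called for Fcgr3 in cluster 0 (0.32, edgeR adjusted p = 0.0305, where 0.163% of genes were called) and for Fcgr2b in cluster 3 (0.49, edgeR adjusted p = 0.0117, where 0.0602% were called). In cluster 2 of WT mice, Fcgr3 differed by -0.68 ± 0.10 (edgeR adjusted p = 1.27e-04, where 5.88% were called) and Fcgr2b by -0.62 ± 0.14 (adjusted p = 9.44e-03, lost without pool 1, 3 or 4), with WT isotype sums of 23 to 42 cells.

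Between the genotypes under ATV:4D9, Fcgr2b and Fcgr3 stood apart in the interferon-like cluster. Fcgr2b was at 198 ± 30.7 CPM in AppSAA and 84.5 ± 3.30 CPM in WT cells of cluster 5 (log2 fold change 1.29 ± 0.12, edgeR adjusted p = 9.56e-08), and Fcgr3 at 548 ± 62.4 and 333 ± 23.9 CPM (0.79 ± 0.10, edgeR adjusted p = 2.16e-05), where 6.43% of genes were called. In cluster 4 the called member was Fcgr4 (28.1 ± 5.75 and 17.3 ± 2.73 CPM, 0.76 ± 0.13, edgeR adjusted p = 8.36e-04, where 2.76% of genes were called), and in cluster 3 it was Fcgr2b (0.51 ± 0.09, edgeR adjusted p = 0.0115, where 0.163% were called), a call lost without pool 2, 3 or 4. With the pool as a block Fcgr1 (0.33, edgeR adjusted p = 6.69e-03) and Fcer1g (0.28, adjusted p = 0.0202) were also called in cluster 4, where 9.79% of genes were called, and Fcgr3 (0.31, adjusted p = 4.96e-03) in cluster 3, where 1.7% were called.

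Fcrls varied widely between AppSAA mice of the same treatment. Its CPM was 1644, 858, 1415 and 853 in AppSAA isotype mice 1 to 4, and 1711, 1479, 1528 and 918 in AppSAA 4D9 mice. In AppSAA ATV:4D9 mice it was 1116, 775, 1059 and 1169. WT mice spread far less, from 1616 to 1782 CPM under isotype. The 4 lowest of all mice were AppSAA ATV:4D9 mouse 2, AppSAA isotype mice 4 and 2 and AppSAA 4D9 mouse 4. They belong to pools 2 and 4, which also held AppSAA 4D9 mouse 2 at 1479 CPM and AppSAA ATV:4D9 mouse 4 at 1169 CPM.

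The same mice were low in each of the 6 clusters. In cluster 0 AppSAA isotype mice 2 and 4 were at 1071 and 1074 CPM while mice 1 and 3 were at 1931 and 1623 CPM. In cluster 1 the 4 mice were at 1569, 799, 1386 and 754 CPM, and in cluster 5 at 1227, 756, 1095 and 713 CPM. AppSAA 4D9 mouse 4 and AppSAA ATV:4D9 mouse 2 were the lowest of their groups in every cluster. Relative to library size Fcrls was not called in any comparison of whole mice with all mice and no block, while per cell it was called in WT mice as given above. Against plain 4D9, ATV:4D9 was called lower without AppSAA 4D9 mouse 4 (-0.57, edgeR adjusted p = 0.0210) and with the pool as a block (-0.37, edgeR adjusted p = 0.0493, where 69.9% of all genes were called). Within clusters the block also called Fcrls lower against plain 4D9. These were cluster 2 (-0.41, edgeR adjusted p = 0.0279, 23.1% of genes called) and cluster 4 (-0.56, adjusted p = 6.34e-03, 28.4%). In cluster 0 it was called lower in AppSAA than in WT isotype mice (-0.42, edgeR adjusted p = 4.70e-03, 4.61%).

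**Figure D5:**
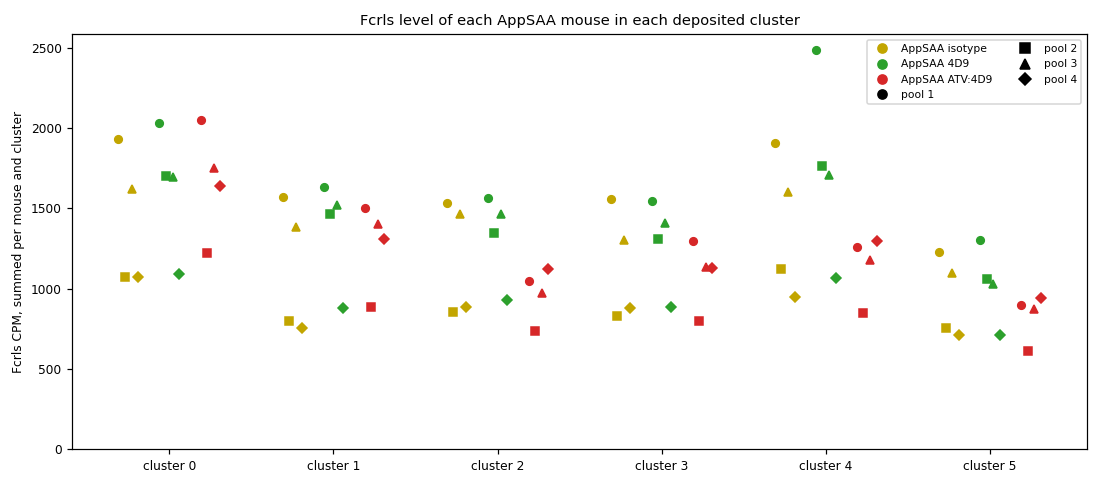
CPM of Fcrls (y axis, from 0) in each AppSAA mouse and deposited cluster (x axis). Colour gives the treatment and the shape of the point gives the pool. AppSAA isotype mice 2 and 4, AppSAA 4D9 mouse 4 and AppSAA ATV:4D9 mouse 2 are the lowest of their groups in all 6 clusters.

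Fcrl1, a relative of Fcrls that lies 113 kb away on chromosome 3 (87376387 to 87402934, plus strand), is known from B cells. It was at 32.7 ± 1.85 CPM in WT isotype and 5.13 ± 0.66 CPM in WT ATV:4D9 mice (log2 fold change -2.56 ± 0.25, edgeR adjusted p = 2.83e-08). In AppSAA isotype mice 1 to 4 it was at 16.6, 6.15, 18.0 and 9.70 CPM, so that mice 2 and 4 were again the low ones, and under plain 4D9 mouse 4 was lowest with 9.71 CPM. In AppSAA ATV:4D9 mice it was at 2.47, 3.19, 4.53 and 4.31 CPM (log2 fold change against isotype -1.74 ± 0.25, edgeR adjusted p = 7.72e-06), and here mouse 1 was the lowest, not mouse 2 as for Fcrls. The summed B cell markers moved the same way, at 276 to 304 CPM in WT isotype, 203 to 216 in WT ATV:4D9, 230 to 269 in AppSAA isotype and 177 to 205 CPM in AppSAA ATV:4D9 mice. Of these markers Ms4a1 was at most at 0.20 and Cd79a at most at 0.50 CPM, with Ighm and Cd79b making up the sum. The cells had been sorted as CD11b+, and the part of B cells in the Fcrl1 values was not tested. Of 12 other Fc receptor genes listed, 9 were in the matrix and 2 were tested, the other being Trim21, the cytosolic antibody receptor. Trim21, at 7.75 CPM over all mice, lay under the level of 10 CPM set for named genes and is given because only 2 were tested. It was lower in WT mice (-0.34, edgeR adjusted p = 5.72e-03) and higher in AppSAA mice (0.36, edgeR adjusted p = 3.47e-03) given ATV:4D9.

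The signalling genes downstream of Fc receptors moved in both directions. Of 51 listed, 11 were called higher and 22 lower in WT mice given ATV:4D9, a share of 64.7% against 63.3% of all genes, with a median log2 fold change of -0.20 against -0.05. In AppSAA mice 13 were higher and 15 lower, a share of 54.9% against 55.1% of all genes, with a median of -0.03, equal to that of all genes. Syk, the kinase that binds the phosphorylated FcRγ chain, was at 92.0 CPM in WT isotype and 44.7 ± 3.95 CPM in WT ATV:4D9 mice (log2 fold change -0.93 ± 0.09, edgeR adjusted p = 1.87e-08). In AppSAA mice it was at 54.3 and 37.2 ± 6.27 CPM (-0.48 ± 0.09, edgeR adjusted p = 1.10e-04). Inpp5d, which encodes the phosphatase recruited by FcγRIIB, was at 369 and 228 ± 35.1 CPM in WT mice (-0.58 ± 0.13, edgeR adjusted p = 5.82e-04) and at 251 and 188 ± 39.1 CPM in AppSAA mice (-0.35 ± 0.13, edgeR adjusted p = 0.0257).

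Of the 8 lipid signalling genes, 6 were called lower in WT and 4 in AppSAA mice and 0 higher, a share called of 75% and 50% against 63.3% and 55.1% of all genes, of which 32.5% and 27.1% were lower. Among them was Pik3cg in AppSAA mice (-0.71 ± 0.15, edgeR adjusted p = 5.68e-04). Of the 5 NADPH oxidase genes 2 were higher and 1 lower in WT mice and 3 were higher and 1 lower in AppSAA mice, a share of 60% and 80% against the same background. Cybb, the catalytic subunit of that oxidase, rose in both (1.35 ± 0.24 in WT, edgeR adjusted p = 5.73e-05, and 1.48 ± 0.23 in AppSAA mice, edgeR adjusted p = 1.92e-05). Among the kinases, Fgr rose in WT mice (1.24 ± 0.10, edgeR adjusted p = 1.32e-09). The adaptor Dok3 fell in both (-1.21 ± 0.16 in WT, edgeR adjusted p = 1.42e-06, and -0.79 ± 0.16 in AppSAA mice, edgeR adjusted p = 3.27e-04).

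B2m, the partner of FcRn, did not follow Fcgrt. It was not called with ATV:4D9 in WT mice (0.19 ± 0.09, edgeR adjusted p = 0.0650) or in AppSAA mice (0.09 ± 0.09, edgeR adjusted p = 0.408), and was higher in AppSAA than in WT isotype mice, at 2918 ± 278 against 1814 CPM (0.87 ± 0.09, edgeR adjusted p = 3.29e-07).

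Each member's pattern over the 20 mice was set beside those of 8028 genes with a mean of at least 10 CPM. The measure was the root mean square difference of log2 CPM after TMM scaling (prior count 2), centred on each gene's mean. The CPM values printed below are without that scaling. The nearest genes to Fcgr1 were Psmb10 (0.11), Lap3 (0.11) and Mtmr14 (0.12), where the pattern of Fcgr1 itself had a root mean square of 0.33. Nearest to Fcgr4 (0.60) were Ifih1 (0.14), Tap1 (0.16) and Parp12 (0.16), which are known as interferon-induced genes. Ifih1, for example, was at 22.6 ± 2.65, 29.1 ± 3.19, 25.1 ± 2.19, 23.5 ± 2.69 and 59.1 ± 6.41 CPM over the 5 groups in the order of the figure of levels by mouse. Nearest to Fcgr3 (0.60) were Casp6 (0.11), Cebpa (0.12) and Idh1 (0.14). Cebpa, a transcription factor of myeloid cells, was at 344.97 ± 42.5, 119 ± 10.4, 298 ± 16.8, 284 ± 32.0 and 145 ± 23.1 CPM over the same groups. Nearest to Fcgr2b (0.58) were Arid5b (0.14), Fblim1 (0.19) and Gm36738 (0.20). The measure describes likeness across these mice, which share groups and pools, and carries no test.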

How the data were processed

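Single-cell libraries (10x CellPlex) of live CD11b+ brain cells were sequenced as 4 pools, and per the labels the reads were processed by the authors with Cell Ranger 6.1.1 against mm10. The authors deposited UMI counts per cell and gene, without normalization, and an annotation of each cell with mouse, group, pool, cluster and percent of mitochondrial counts. How doublets were treated is not given in the sources used here, and no cells were removed. The sequenced samples are pools, so the mouse and group of a cell came from the deposited annotation.

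For each mouse, counts were added over its cells, and again within each cluster where a sum held at least 20 cells and a group at least 3 sums. R 4.3.3 with edgeR 4.0.16 was used for the tests (low counts removed by filterByExpr, TMM scaling, quasi-likelihood F-test). The 5 groups entered one fit without a pool term. P values were adjusted by Benjamini-Hochberg across every gene tested, with calls at 0.05. CPM is the count per 1000000 counts of the mouse. Ratios were tested with exact permutation tests (scipy 1.17.1, two-sided). The edgeR test was also run on simulated counts with few changed genes and no pool effect. That setting differs from these data, so it does not check the tests under their conditions. Alternatives were RLE size factors, no filter on low counts, limma-voom (limma 3.58.1), DESeq2 1.42.0, a scale of UMIs per cell, cells of 1000 to 25000 UMIs, sums of at least 50 cells, thinning to 2000 UMIs, each mouse or pool left out, and the pool as a block. Pools pair the mice, since each held 1 mouse of every group, and deviations from the group means correlated above 0.1 in 40 of 40 same-pool pairs (r 0.143 to 0.607) and in 29 of 120 other pairs. All members are named. Of each gene list, up to 4 called genes with the largest change and a mean of at least 10 CPM are named, with Syk, Inpp5d and B2m always, and the 3 nearest genes in pattern. One gene that this rule would name is not reported here. The members, lists and tests were chosen with earlier results of these data known. Intervals between mice are SD, and depth was 17150296 to 102446549 UMIs per mouse.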

Additional observations from a re-analysis of the deposited data

Results flagged for a closer look

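The effect of ATV:4D9 differed between genotypes by a test of the difference itself for 4 members, where 9.14% of all genes were called. On the log2 scale the effect in AppSAA minus that in WT mice was 0.73 for Fcgr2b, 0.72 for Fcgr1, 0.70 for Fcgr4 and 0.53 for Fcgr3. On the scale of UMIs per cell these were 0.38, 0.38, 0.36 and 0.20, and none was called with edgeR (adjusted p 0.248, 0.121, 0.422 and 0.459). The median gene stood at -0.30 on that scale. There 15.9% of all genes were called, 0.27% higher and 15.6% lower, so the 4 members lay above the median gene on both scales.

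Among AppSAA isotype mice the Fcgrt level of mouse 1 stood apart, at 79.4 CPM against 62.6, 65.3 and 63.4 CPM in mice 2 to 4. The gap to the nearest mouse was 0.842 of the range of the group, above Dixon's critical value for 4 samples. It was the only such flag among 35 groups of 4 mice tested, where chance gives about 1 in 20.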

How the results depend on the processing

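The scale changed most. On UMIs per cell the direction turned in WT mice given ATV:4D9 against isotype for Fcgrt (0.23) and Fcrls (0.69), in AppSAA mice for Fcgrt (0.14) and Fcrls (0.39), and against plain 4D9 for Fcgrt (0.087) and Fcrls (0.12). It turned between isotype genotypes for Fcgr1 (0.018) and Fcgr3 (0.16), for plain 4D9 against isotype for Fcgr1 (0.0079), Fcgr4 (0.011) and Fcgr2b (0.0052), and in the interaction for Fcer1g (-0.26), Fcgrt (-0.090) and Fcrls (-0.31). The members called were then 7 in WT mice (70.5% of all genes), 1 between isotype genotypes (24.4%) and 0 in the interaction (15.9%). Fcgr3 under plain 4D9, near 0, was -0.0015 with no filter, -0.00025 with the pool block and -0.0030 with cells of 1000 to 25000 UMIs. The Fcrls interaction was -0.028 with RLE or DESeq2 and -0.042 with no filter. With those cells Fcgrt was not called in AppSAA mice against isotype (-0.27, edgeR adjusted p = 0.0736) or 4D9 (-0.29, edgeR adjusted p = 0.0566).

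With the pool as a block the members called between isotype genotypes were 4, where 51% of all genes were called. Within clusters the block raised the share of all genes called as well, given here after each count of members. In cluster 0 it gave 2 for WT ATV:4D9 (8.96%), 1 between isotype genotypes (4.61%), 2 between genotypes under ATV:4D9 (1.86%) and 1 for the interaction (0.163%). It gave 3 between genotypes under ATV:4D9 in cluster 2 (7.38%). In cluster 3 it gave 3 against isotype (12.6%) and 3 against 4D9 in AppSAA mice (11.2%, and 1 member with RLE), 2 between genotypes under ATV:4D9 (1.7%) and 1 for the interaction (0.0602%). It gave 3 between genotypes under ATV:4D9 in cluster 4 (9.79%), and 5 against isotype (34.3%) and 2 against 4D9 (20.5%) in cluster 5. Paired by pool, an alternative chosen after the data were seen, the ratio tests cannot go under p = 0.125 (exact permutation, adjusted 0.15), so that no ratio was called. The differences are then the same by construction. For Fcgr3 to Fcgr2b they were -0.083 in WT mice, -0.27 in AppSAA mice, -0.32 against 4D9, -0.25 between isotype genotypes and -0.44 under ATV:4D9, each lower in 4 of 4 pools. For the summed ratio they were 0.500 and 0.39 (higher in 4 of 4) and -0.28 between isotype genotypes (lower in 4 of 4). Among whole-mouse values the block changed no call other than those given with the results. With cells of 1000 to 25000 UMIs the Fcgr3 to Fcgr2b difference was -0.077 in WT mice and the summed ratio differed by 0.25 in AppSAA mice, both no longer called, while the summed ratio between genotypes under ATV:4D9 was called (-0.46).

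Thinning to 2000 UMIs lowered the shares of cells with a UMI. In the order WT isotype, WT ATV:4D9, AppSAA isotype, AppSAA 4D9 and AppSAA ATV:4D9 they were 55.0, 50.8, 46.4, 46.1 and 57.7% for Fcgr1, 88.4, 53.6, 84.3, 83.6 and 57.8% for Fcgr3, and 3.35, 4.601, 3.89, 3.64 and 8.27% for Fcgr4. They were 99.1, 98.3, 99.1, 99.1 and 99.0% for Fcer1g, 37.3, 16.6, 37.7, 35.9 and 25.5% for Fcgr2b, 17.3, 11.5, 13.4, 13.8 and 10.1% for Fcgrt, and 91.2, 88.5, 81.0, 85.2 and 78.8% for Fcrls.

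With 1 mouse left out, values that crossed 0 were not called. They ranged in WT mice from -0.077 to 0.12 for Fcgr1 and -0.054 to 0.16 for Fcer1g, and in AppSAA mice from -0.28 to 0.084 for Fcrls. For plain 4D9 they ranged from -0.11 to 0.039 for Fcgr1, -0.058 to 0.032 for Fcgr3, -0.066 to 0.015 for Fcgr4, -0.074 to 0.11 for Fcer1g and -0.055 to 0.13 for Fcgrt. Under ATV:4D9 Fcgrt ranged from -0.14 to 0.0055, and in the interaction Fcer1g from -0.015 to 0.20 and Fcrls from -0.13 to 0.23. The members called between isotype genotypes were 0 to 1, where 22.4 to 27.4% of all genes were called. Ratio tests then cannot go under p = 0.0571 (exact permutation). The Fcgr3 to Fcgr2b difference ranged from -0.10 to -0.059 in WT mice, -0.31 to -0.22 in AppSAA mice, -0.36 to -0.23 against 4D9, -0.046 to 0.10 for plain 4D9, -0.30 to -0.22 between isotype genotypes and -0.48 to -0.41 under ATV:4D9. The summed ratio ranged from 0.45 to 0.52, 0.27 to 0.45, -0.059 to 0.10 (plain 4D9) and -0.34 to -0.24 (isotype genotypes).

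With 1 pool left out, the members called are given beside the share of all genes called in the same fits. In cluster 0 there were 0 to 1 in WT mice (0.145 to 1.14%) with Fcgr4 from -0.093 to 0.29, and in cluster 1 there were 1 to 3 against isotype (0.759 to 1.05%) and against 4D9 (0.795 to 1.05%). In cluster 2 there were 1 to 2 in WT (2.13 to 3.72%, with Fcgr1 from -0.027 to 0.17), 1 to 4 in AppSAA (4.41 to 11.8%) and 0 to 1 between genotypes under ATV:4D9 (0.884 to 2.09%). In cluster 3 there were 0 to 1 in WT (2.15 to 5.28%), in AppSAA against isotype (1.29 to 2.71%, with Fcgr3 from -0.13 to 0.0012), against 4D9 (0.91 to 2.19%) and between genotypes (0.00855 to 0.111%). There were 3 to 5 against 4D9 (14 to 19.6%) and 1 to 2 between genotypes (1.58 to 3%) in cluster 4, and 1 to 3 against isotype in cluster 5 (14.2 to 23.2%). Except where a value or a smaller number of mice shows it, the cause was not tested.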

Other observations

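Of the partners listed with the receptors, 3 of 4 were tested, namely B2m and the transmembrane adaptor genes Tyrobp and Hcst. All 3 were higher in AppSAA than in WT isotype mice with edgeR, where 28.2% of all genes were called. Tyrobp was at 3326 ± 188 CPM in WT and 6110 ± 487 CPM in AppSAA isotype mice (log2 fold change 1.06 ± 0.12, edgeR adjusted p = 7.15e-07), and Hcst at 38.2 ± 4.92 and 77.03 ± 4.59 CPM (1.197 ± 0.16, edgeR adjusted p = 6.71e-06). With ATV:4D9 in AppSAA mice, where 55.1% of all genes were called, Tyrobp was at 4123 ± 385 CPM (-0.50 ± 0.12, edgeR adjusted p = 1.01e-03) and Hcst at 47.1 ± 9.90 CPM (-0.65 ± 0.15, edgeR adjusted p = 1.19e-03), both lower than under isotype.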
